A study of Homo sapiens with 6 samples.

Results

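The miR-548 family comprises the mature miRNAs whose name begins with hsa-miR-548. This rule selected 80 of the 2588 mature human miRNAs listed in the count tables, and it used no measured value. A549, an established line of human lung adenocarcinoma, was the source of all libraries, and doxycycline induced an shRNA against the coding sequence of METTL1. All cells received 200 ng/ml doxycycline and were collected on day 5, so that every library here is from METTL1-depleted cells. Small RNA was sequenced from total RNA (input, 3 libraries) and from RNA recovered with an antibody against 7-methylguanosine (m7G-RIP, 3 libraries). The shRNA was carried by a lentiviral pLKO-TETon-Puro vector, and its effect on METTL1 mRNA cannot be read from a miRNA table. The growth note attached to the m7G-RIP libraries describes medium for Caco-2 cells, although the same libraries are labelled A549. Libraries from METTL1-proficient cells and from a control antibody were not analysed here.

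METTL1 is the catalytic subunit of the methyltransferase that places m7G inside RNAs, best known from tRNAs. The miR-548 family is specific to primates and arose from MADE1, a short element related to Mariner DNA transposons. MADE1 consists of almost nothing but inverted repeats, so a transcribed copy can fold into a hairpin that Drosha and Dicer process, and many copies gave rise to near-identical mature miRNAs. Comparing m7G-RIP with input in these cells asks which miRNAs the antibody still recovered after depletion of METTL1.

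The sequences below belong to the members whose counts carried the comparison, and they show how little separates one member from the next. They are RefSeq mature sequences, read 5′ to 3′ with GRCh38.p14 as the build, and the capitals mark the seed (bases 2 to 8), which directs target recognition. RefSeq held 54 of the 80 members, or 67.5%. The members miR-548e-3p and miR-548h-5p are given by name.
miR-548o-3p: cCAAAACUgcaguuacuuuugc
miR-548am-3p: cAAAAACUgcaguuacuuuugu
miR-548f-3p: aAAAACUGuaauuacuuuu
miR-548u: cAAAGACUgcaauuacuuuugcg
miR-548k: aAAAGUACuugcggauuuugcu
miR-548av-5p: aAAAGUACuugcggauuu
miR-548l: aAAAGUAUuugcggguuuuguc
miR-548j-5p: aAAAGUAAuugcggucuuuggu
miR-548n: cAAAAGUAauuguggauuuugu

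The 5p members miR-548k and miR-548l differed by C8U, A15G, C21U and U22C, where positions count from 1 at the 5′ end and the base of miR-548k is given first. Against miR-548k, miR-548j-5p carried C8A, A15U, U16C and C21G, and in both pairs the first of these changes lies in the seed. On the 3p side, miR-548o-3p and miR-548am-3p were separated by C2A and C22U, with the base of miR-548o-3p first. The 18 bases of miR-548av-5p lie within the 22 bases of miR-548k. Reads shared by such members could be split, assigned to either of them or counted for each, so values of single members are uncertain. A read counted more than once would also enter the family sum more than once.

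Hairpin positions are given here for miR-548k, miR-548l, miR-548o-3p and miR-548e-3p. MIR548K lies on the plus strand of chromosome 11 (70283955 to 70284070, GRCh38) within an intron of PPFIA1, and MIR548L lies on the minus strand of chromosome 11 (94466495 to 94466580) within an intron of MRE11, which encodes a DNA repair nuclease. The mature miR-548o-3p has 2 loci, MIR548O on chromosome 7 (102405742 to 102405855, minus strand), outside coding introns, and MIR548O2 on chromosome 20 (38516563 to 38516632, plus strand), in an intron of RALGAPB. MIR548E lies in an intron of SHOC2 on chromosome 10 (110988926 to 110989013, plus strand). GENCODE release 44 lists 72 hairpin genes of the family, of which 36 lie in an intron of a protein-coding gene on the same strand.

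The input libraries held 9155690 to 10753443 counts and the m7G-RIP libraries 2649238 to 3106556. Levels are therefore given as raw counts and as CPM, the counts relative to a common library total. Unless stated, CPM were scaled by the trimmed mean of M-values (TMM), which assumes that most miRNAs did not differ between libraries. In the test below, 29.2% of tested miRNAs were called lower in m7G-RIP and 23.5% higher. Most were thus called different, and the scaling is uncertain. The amount of RNA recovered is not known, so a lower ratio means less of a miRNA relative to the other miRNAs of the library. The labels do not say that replicates were separate cultures, and p-values then measure the spread between these libraries, which may be technical. Replicate libraries differed by far more than counting noise, with a chi-square per degree of freedom of 28.4 to 151. Reads carried no molecular identifiers, so the intervals below cover counting error only and take each count as a separate read.

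Most of the family was not seen in A549 cells. In all, 30 of 80 members (37.5%) had a count in any library and 50 were at 0 throughout, whereas 57.4% of the 2508 other miRNAs had a count. All 30 were present in input and 11 also in m7G-RIP, and no member had counts in m7G-RIP alone. The input libraries contained 20, 22 and 21 members, and the m7G-RIP libraries contained 6, 7 and 8. As a share of the family this was 25%, 27.5% and 26.25% against 7.5%, 8.75% and 10%. For the other miRNAs the shares were 42.1%, 42.0% and 42.0% in input and 28.9%, 31.6% and 32.5% in m7G-RIP. The m7G-RIP libraries were shallower, and input libraries drawn down to their totals would hold 15.7 to 18.6 members by calculation, more than the 6 to 8 observed. The same calculation over all miRNAs gave 929 to 958 where 731 to 823 were observed, and whether the 2 shortfalls differ was not tested. A total of 13 members appeared in every input library and 5 in every m7G-RIP library, which were miR-548o-3p, miR-548k, miR-548l, miR-548j-5p and miR-548n. Of the 11 members with m7G-RIP counts, 6 had them in a single library, and in input this held for 10 of 30.

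The summed family was lower in all m7G-RIP libraries than in any input library. It amounted to 1774, 1934 and 1653 counts in input, or 200, 230 and 217 CPM, and to 210, 311 and 369 counts in m7G-RIP, or 61.8, 97.6 and 98.7 CPM. The groups did not overlap, and m7G-RIP replicate 1 was the lowest. The mean was 216 ± 14.9 CPM in input and 86.0 ± 21.0 CPM in m7G-RIP (SD, n = 3 each), a log2 difference of -1.36 (SE 0.23), or 2.56-fold lower. Before TMM scaling the family stood at 165, 188 and 181 CPM in input (95% Wilson intervals 157 to 173, 180 to 197 and 172 to 189) and 79.3, 113 and 119 in m7G-RIP (69.2 to 90.7, 101 to 126 and 107 to 132). On that scale the log2 difference was -0.80, and the median of all tested miRNAs stood at 0.48 rather than -0.07. Relative to the median of all tested miRNAs the family was at -1.28 on both scales. The sum is a description and carries no test.

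**Figure D1:**
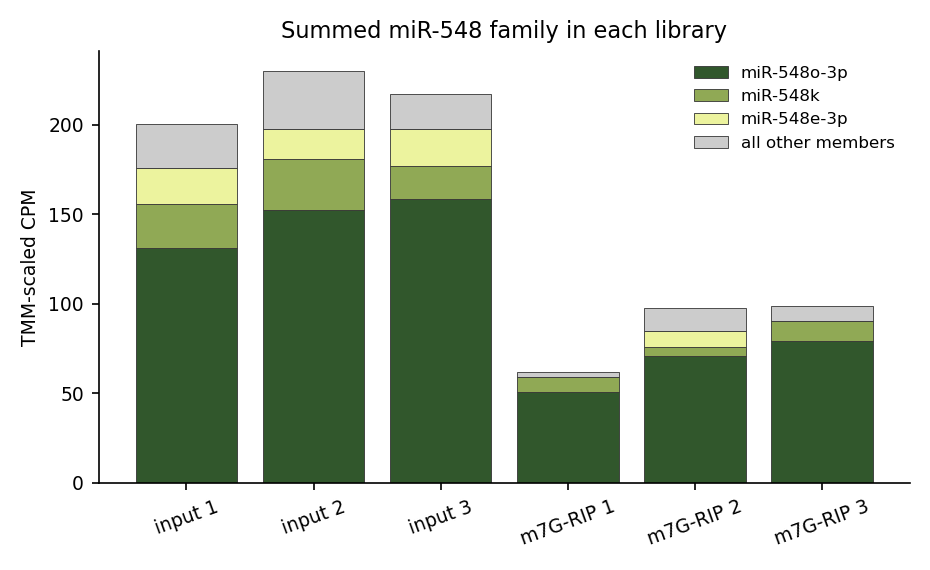
Summed TMM-scaled CPM of the miR-548 family (vertical axis) in each of the 6 libraries (horizontal axis), with bars stacked by member. The 3 m7G-RIP bars reach 61.8 to 98.7 CPM and the 3 input bars 200 to 230, and miR-548o-3p fills most of every bar.

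A single member, miR-548o-3p, held most of the counts in this sum. This member has 2 hairpin genes and only even counts, so its share of the reads may be smaller. It provided 65.5%, 66.2% and 73.1% of the family counts in input (95% Wilson intervals 63.3 to 67.7, 64.0 to 68.3 and 70.9 to 75.2) and 81.9%, 72.7% and 80.2% in m7G-RIP (76.1 to 86.5, 67.5 to 77.3 and 75.8 to 84.0). Its share was thus higher in 2 of the 3 m7G-RIP libraries than in any input library, while m7G-RIP replicate 2 lay within the range of the input. Without it the other 79 members summed to 69.0, 77.7 and 58.5 CPM in input and to 11.2, 26.7 and 19.5 CPM in m7G-RIP. These groups did not overlap either, and the difference was -1.92 on the log2 scale (SE 0.39), or 3.78-fold lower.

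The 2 sides of the hairpin were both lower in m7G-RIP. The 41 members named or annotated as 5p gave 34.3, 49.7 and 27.9 CPM in input and 10.9, 17.3 and 18.5 CPM in m7G-RIP, a log2 difference of -1.26 (SE 0.34). The 33 members of the 3p side gave 178 ± 11.5 CPM in input and 70.5 ± 17.0 CPM in m7G-RIP (SD, n = 3 each), a log2 difference of -1.37 (SE 0.23). Leaving miR-548o-3p out of the 3p side left 34.6, 27.9 and 29.7 CPM in input against 0.294, 9.41 and 1.07 CPM in m7G-RIP. Nearly all of what remained there in m7G-RIP was the 30 counts of miR-548e-3p in replicate 2. The arm of the remaining 6 members is not given by RefSeq or their name.

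After the default low-count filter of edgeR, 6 of the 80 members (7.5%) could be tested singly, compared with 620 of 2588 miRNAs in all. Only miR-548o-3p and miR-548k were above the filter's level in every library. The members miR-548f-3p, miR-548e-3p and miR-548h-5p passed through their input counts and miR-548l through its m7G-RIP counts, so a difference in that direction was part of their being tested. The counts among these 6 therefore do not describe the family. By edgeR's quasi-likelihood test with Benjamini-Hochberg adjustment over all 620 miRNAs, 3 members were depleted from m7G-RIP (miR-548o-3p, miR-548k and miR-548f-3p), beside 29.2% of all tested miRNAs. None of the 6 was enriched in edgeR, beside 23.5% of all tested miRNAs, and none was enriched by DESeq2 either. At an unadjusted p under 0.05 the 3 depleted members passed and no other. Every m7G-RIP library lay below every input library for 5 of the 6, beside 36.5% of all tested miRNAs, and above for 1 (miR-548l), beside 29.5%. With library sizes alone, enriched miRNAs made up 60.5% of all calls in place of 44.6%. On that scale 2 members were depleted (miR-548o-3p and miR-548f-3p), beside 141 of all 620 tested miRNAs.

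**Figure D2:**
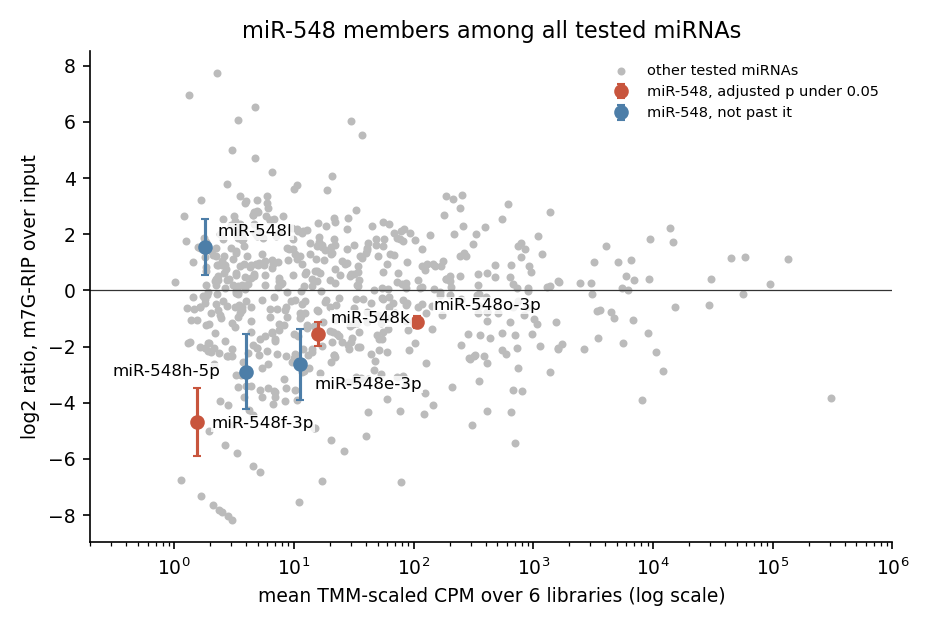
Log2 ratio of m7G-RIP over input (vertical axis) against mean TMM-scaled CPM over 6 libraries (horizontal axis, log scale) for the 620 tested miRNAs, with the 6 miR-548 members in colour and their SE as bars. The 3 depleted members lie between -4.68 and -1.14, and miR-548l is the only member above 0.

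The most abundant member, miR-548o-3p, is a 3p miRNA with a seed (CAAAACU) that no other sequenced member shared. It had 1162, 1280 and 1208 counts in input and 172, 226 and 296 in m7G-RIP. All are even, and the member has 2 hairpin genes, so these counts may stand for fewer reads. All m7G-RIP libraries lay below the input libraries once scaled, with 147 ± 14.5 CPM in input and 66.9 ± 14.7 CPM in m7G-RIP (SD, n = 3 each). Its log2 ratio was -1.14 (SE 0.21, edgeR adjusted p = 0.00183), and it was depleted under all 13 alternative settings (log2 ratio -1.50 to -0.59).

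The next, miR-548k, is a 5p miRNA from the PPFIA1 intron. It had 217, 243 and 140 counts in input and 29, 15 and 42 in m7G-RIP, or 23.9 ± 5.26 CPM against 8.16 ± 3.28 CPM (SD, n = 3 each). The groups were separate, with m7G-RIP replicate 2 the lowest. Its log2 ratio was -1.54 (SE 0.43, edgeR adjusted p = 0.0148). The call was lost without input replicate 2 (log2 ratio -1.40, edgeR adjusted p = 0.0711), with library sizes alone (-0.98, 0.0868) and with library sizes that left out the 10 most abundant miRNAs (-1.08, 0.0603).

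The third depleted member, miR-548f-3p, was almost absent from m7G-RIP. It passed the filter through its input counts alone, so a lower m7G-RIP level was built into its being tested, and its p-value is to be read with that. It had 30, 22 and 23 counts in input and 1, 0 and 0 in m7G-RIP. Summed over the libraries this was 31.1-fold lower, with a 95% counting interval of 5.41 to 1244, and the fitted log2 ratio was -4.68 (SE 1.21, edgeR adjusted p = 0.0100). The call was lost when all miRNAs with a count were tested (adjusted p = 0.0532), and without any 1 of the input libraries the member did not pass the filter.

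A pair of tested members, miR-548e-3p and miR-548h-5p, were high in input and present in a single m7G-RIP library. For miR-548e-3p the counts were 182, 141 and 154 in input and 0, 30 and 0 in m7G-RIP, or 19.2 ± 2.10 CPM against 3.14 ± 5.43 CPM (SD, n = 3 each). Its log2 ratio of -2.63 (SE 1.25, edgeR adjusted p = 0.105) did not pass the threshold, and it did without m7G-RIP replicate 2, where all m7G-RIP counts are 0 (adjusted p = 0.000277). For miR-548h-5p the counts were 30, 110 and 35 in input, with replicate 2 the highest, and 0, 0 and 10 in m7G-RIP. All are multiples of 5, and the member has 5 hairpin genes, so these counts may stand for fewer reads. The filter and the p-values take each count as a separate read. The log2 ratio was -2.90 (SE 1.34, edgeR adjusted p = 0.0951), and the member passed without m7G-RIP replicate 3 (adjusted p = 0.00760) and with no filter (0.0272). Before TMM scaling its groups overlapped, at 2.79 CPM in input replicate 1 and 3.22 CPM in m7G-RIP replicate 3.

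The fourth member selected through a single group was miR-548l, the 5p miRNA from the MRE11 intron that resembles miR-548k, and here the group was m7G-RIP, so that its higher level there is what the filter chose. The untested miR-548j-5p had more counts in all, 62 against 51. For miR-548l there were 15, 1 and 7 counts in input and 6, 12 and 10 in m7G-RIP, and the level was 0.910 ± 0.787 CPM in input and 2.74 ± 1.00 CPM in m7G-RIP (SD, n = 3 each). The lowest m7G-RIP library (1.77 CPM) lay just above the highest input library (1.69 CPM). Its log2 ratio of 1.56 (SE 0.99, edgeR adjusted p = 0.218) did not pass the threshold, nor did it under any of 12 alternative settings (log2 ratio 0.99 to 2.34). The difference between miR-548l and miR-548k was not tested.

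**Figure D3:**
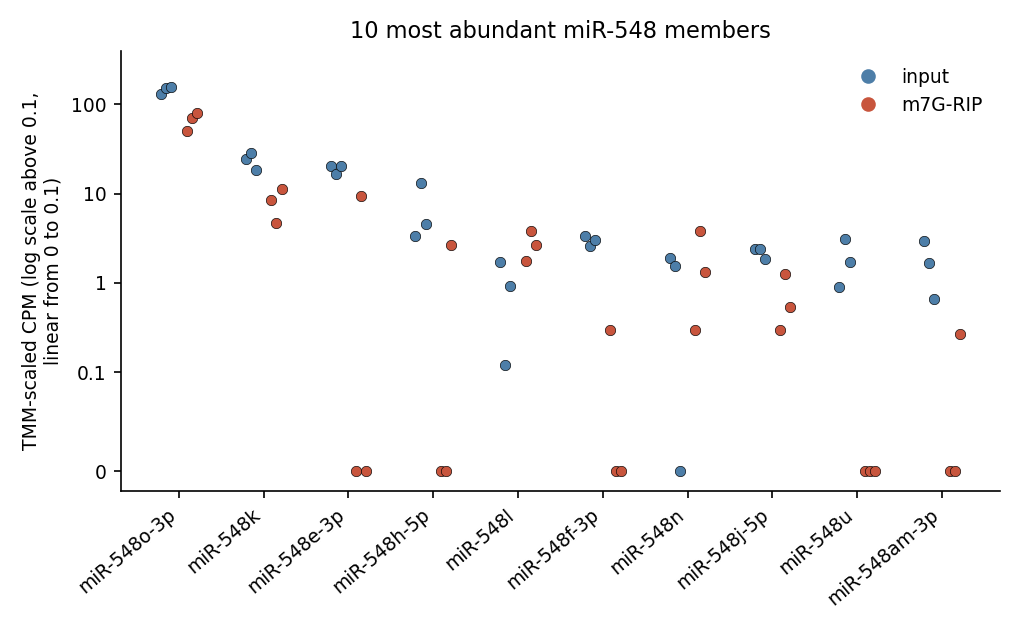
TMM-scaled CPM (vertical axis, log scale above 0.1 and linear from 0 to 0.1) of the 10 miR-548 members with the highest mean level, with 3 input and 3 m7G-RIP libraries as points. For miR-548o-3p, miR-548k and miR-548e-3p the input points lie above all m7G-RIP points, for miR-548l the order is opposite, and for miR-548u all m7G-RIP points are at 0.

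A further 24 members had counts too low for the test, between 1 and 62 over all libraries. Together they held 138, 137 and 86 counts in input and 2, 28 and 11 in m7G-RIP, or 15.6, 16.3 and 11.3 CPM against 0.589, 8.79 and 2.94 CPM. The 2 groups did not overlap, although m7G-RIP replicate 2 came close. At 0 in all m7G-RIP libraries were 19 of the 24. These libraries were shallower, and the same share among other miRNAs with so few counts is not given here. Of the 3 with the highest totals, miR-548j-5p, from an intron of TPST2 on chromosome 22, had 21, 20 and 14 counts in input and 1, 4 and 2 in m7G-RIP. The levels of miR-548n, from an intron of DPY19L1 on chromosome 7, overlapped between the groups, with 17, 13 and 0 counts in input and 1, 12 and 5 in m7G-RIP. The third, miR-548u, from an intron of PRIM2 on chromosome 6, had 8, 26 and 13 counts in input and 0 in every m7G-RIP library.

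By counting error alone, a count of 0 sets an upper limit of 3 counts over the m7G-RIP group, or 0.291 CPM. The input count was taken as exact. Replicate libraries differed by more than counting noise, so the true differences may be smaller than the bounds given here. Against that limit miR-548u was at least 6.50-fold lower in m7G-RIP. A bound above 1 could be given for 9 of the 19 members at 0, from at least 1.24-fold to at least 6.50-fold lower, and for the other 10 the depth could not show a difference. For miR-548am-3p, from an intron of CTPS2 on chromosome X, 26, 14 and 5 counts in input stood against 0, 0 and 1 in m7G-RIP, which was 18.7-fold lower with a 95% counting interval of 3.18 to 753. The 18-base miR-548av-5p was the reverse, with 0, 0 and 1 counts in input and 0, 12 and 0 in m7G-RIP.

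Counts were unevenly spread over the seeds printed above. Besides the seed of miR-548o-3p, which held 3650 input and 694 m7G-RIP counts, the seed AAAGUAC of miR-548k and miR-548av-5p held 601 and 98. The seed AAAGUAA, that of miR-548j-5p, was shared by 11 sequenced members, of which 3 had counts, and these summed to 67 in input and 7 in m7G-RIP. The seed AAAAACU, that of miR-548am-3p, was shared by 7 members, of which 2 had counts, with 47 and 1. The seed AAAACUG of miR-548f-3p and miR-548ar-3p held 87 and 1. In these counts, a seed found in many members was thus not a seed with many counts. The study's alignment limited the loci per read, which may have removed reads of members with many genomic copies. Above this limit and at 0 with AAAGUAA were miR-548ar-5p, miR-548as-5p, miR-548b-5p and miR-548ap-5p (584, 27, 26 and 18 copies). With AAAAACU these were miR-548aq-3p and miR-548ah-3p (572 and 59 copies). The other members at 0 with these seeds had 1 to 5 copies. The effect of the limit on the seed sums cannot be told.

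Family members often have identical copies elsewhere in the genome. On GRCh38 chromosomes, the mature sequence had more than 1 exact copy for 31 of the 54 sequenced members (57.4%), compared with 15.2% of 2227 other miRNAs. The median was 2 copies for the family and 1 for the others, and the highest was 584. Of 23 members with 1 copy, 13 (56.5%) had counts, as had 9 of 18 (50%) with 2 to 10 copies and 2 of 13 (15.4%) with over 10 copies. For the other miRNAs the shares were 59.2% of 1889, 50.6% of 320 and 38.9% of 18. The members above 10 copies with counts were miR-548f-3p, with 34 copies and 76 counts in all, and miR-548av-3p, with 85 copies and 1 count. The study's methods kept reads that align to at most 10 loci, so that the 11 other members above 10 copies, with 11 to 584 copies each, may be at 0 through this limit or because they are not expressed, and these cannot be told apart. How a read that fits several loci or several listed miRNAs was counted is not given in the sources used here. In every library the counts of miR-548o-3p, with 2 hairpin genes, were even. Those of miR-548h-5p, with 5, were multiples of 5, and those of miR-548a-3p, with 3, were multiples of 3. Those of miR-548f-3p, with 5, and miR-548ag, with 2, were not such multiples. Whether reads were counted once at each locus was not tested.

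**Figure D4:**
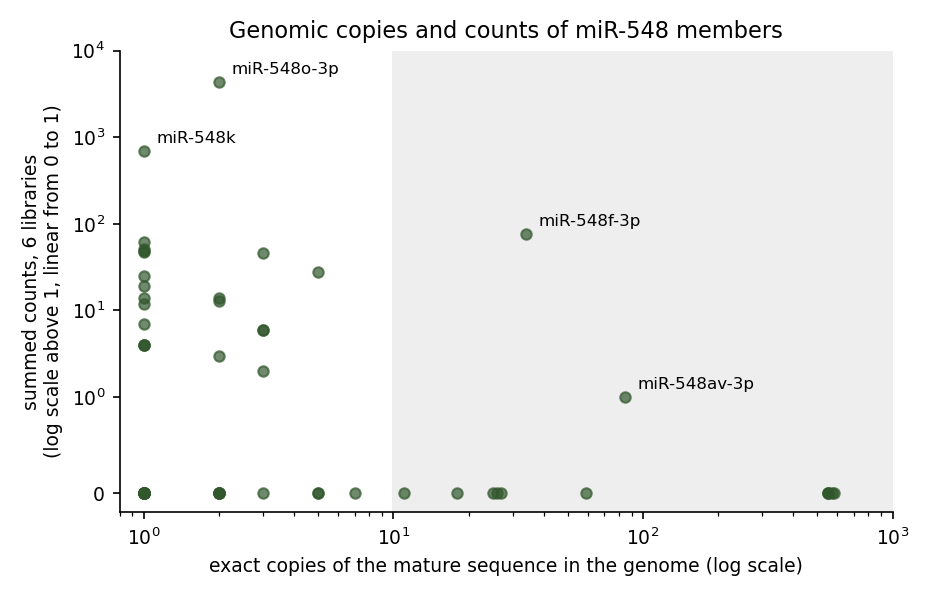
Summed counts of the 6 libraries (vertical axis, log scale above 1 and linear from 0 to 1) against exact genomic copies of the mature sequence (horizontal axis, log scale) for the 54 miR-548 members with a RefSeq sequence, where shading marks the range above 10 copies. Among the 13 members in the shaded range only miR-548f-3p and miR-548av-3p are above 0.

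The hairpins were next grouped by position. Counts were found for 23 of 51 members (45.1%) with a hairpin in an intron of a coding gene on the same strand and for 7 of 29 members (24.1%) without one. These intronic members held 5293 of the input counts and 887 of the m7G-RIP counts, and the others held 68 and 3. Among the former are miR-548o-3p (3650 input and 694 m7G-RIP counts), miR-548f-3p and miR-548h-5p, which have loci of both kinds. The same split of the other miRNAs is not given here. The 3p side had counts for 17 of 33 members and the 5p side for 12 of 41.

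The family was rich in A and U. The median A plus U content was 65.9% (45.5% to 84.2%) in the 54 sequenced members and 47.8% in the 2227 other miRNAs, and the median G content was 18.2% against 27.3%. Because 67.5% of the members and 4 of the 6 tested members (66.7%) have a sequence, too few for the family as a whole, a check of the m7G-RIP ratio against composition over the family is void, and only the values of those 4 are given. Guanine, the base that m7G is made from, was present 3 times in miR-548o-3p, 5 times in miR-548k, 6 times in miR-548l and 1 time in miR-548f-3p.

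Of all tested miRNAs, 557 of 620 (89.8%) had a sequence. Across these miRNAs, which share libraries and are not independent replicates, the log2 ratio had Pearson's r = -0.33 and Spearman's rho = -0.35 with A plus U content, and r = 0.41 and rho = 0.44 with G content. In tested miRNAs outside the family with at least 60% A plus U, the median log2 ratio was -0.95, and 30 of 76 were depleted and 7 enriched. Below 60% the median was 0.17, and 123 of 477 were depleted and 128 enriched. The ratio of miR-548k (63.6% A plus U, log2 ratio -1.54) was below the median of its class. That of miR-548o-3p (59.1%, -1.14), a member just under the cut, was below the medians of both classes, by little for the class above the cut. In the class above the cut, miR-548l (63.6%, 1.56) was above the median and miR-548f-3p (84.2%, -4.68) below it. The filter selected miR-548l through its m7G-RIP counts and miR-548f-3p through its input counts, so neither ratio carries weight here. The part of composition in the depletion of the family was not tested.

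**Figure D5:**
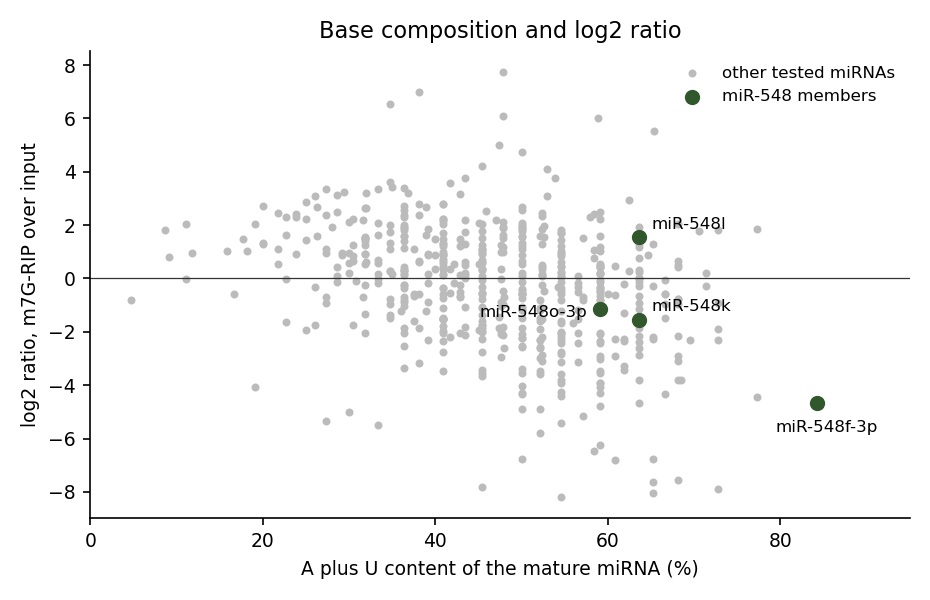
Log2 ratio of m7G-RIP over input (vertical axis) against A plus U content of the mature miRNA in percent (horizontal axis) for 557 tested miRNAs, with the 4 sequenced miR-548 members as large points. At 84.2% miR-548f-3p has the highest A plus U content and a log2 ratio of -4.68, while miR-548k and miR-548l share 63.6% and stand at -1.54 and 1.56. The filter selected miR-548f-3p through its input counts and miR-548l through its m7G-RIP counts.

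Other miRNAs of transposon origin were few. The MADE1 relatives outside the name rule, miR-570-5p, miR-570-3p and miR-603, had no count in any library. Of 7 miRNAs ascribed to other DNA transposons, 3 were tested and 1 was depleted by edgeR, with a median log2 ratio of -0.51 (-1.89 to 0.17). All 6 miRNAs ascribed to LINE-2 elements were tested and 2 were depleted, with a median of -1.08 (-2.77 to -0.32), and none of either list was enriched. Over all 620 tested miRNAs, 29.2% were depleted, 23.5% were enriched and the median log2 ratio was -0.07. The depleted shares were thus near the background, while both medians were lower, in lists too short to compare further.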

How the data were processed

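Small RNA libraries (NEBNext) were prepared from total RNA or from heat-denatured RNA bound by an anti-m7G antibody and eluted with 7-methyl-GTP. The authors trimmed reads with Trimmomatic, aligned them end to end to GRCh38/hg38 with up to 1 mismatch and at most 10 loci, and counted miRBase mature miRNAs with featureCounts. The study's methods name STAR as the aligner, whereas the submitters' processing notes name Bowtie2. The deposited values are raw counts per mature miRNA, with no normalization.

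Counts were tested with edgeR 4.0.16 (TMM, filterByExpr, quasi-likelihood, two-sided, Benjamini-Hochberg threshold 0.05) in R 4.3.3 over all miRNAs. DESeq2 1.42.0, the study's tool, was an alternative, beside other scalings and filters, fits with the replicate number as a block, and fits without 1 of the libraries. The script was tested on simulated data. Positions and introns came from GENCODE release 44, and exact genomic copies were counted on both strands of GRCh38. The family sum used TMM-scaled CPM, and its SE came from the log2 values of the 3 libraries per group. Members, gene lists and tests were chosen with earlier results of these data known. All members passing the filter were named, with values per library for the 10 most abundant, the called ones and the 3 untested members with most counts.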

Additional observations from a re-analysis of the deposited data

How the results depend on the processing

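The number of depleted miR-548 members ranged from 1 to 6 when any 1 library was left out, compared with 3. It was 1 without input replicate 2 (miR-548o-3p), 5 without m7G-RIP replicate 2 (with miR-548e-3p and miR-548u added) and 6 without m7G-RIP replicate 3 (with miR-548am-3p, miR-548h-5p and miR-548u added). In these fits 150 of 594, 245 of 778 and 235 of 756 tested miRNAs were depleted in all. The added members had no counts in the m7G-RIP libraries that were kept. They passed the filter through input counts alone, so a lower m7G-RIP level was built into their being tested. Fits without an m7G-RIP library tested 10 members and fits without an input library 5, in place of 6. Under the 7 other settings the number of depleted members was 2 or 3, and no member was enriched under any of the 13 settings. Over all miRNAs, 133 to 245 were depleted and 116 to 216 enriched, each within 1.5 times of 181 and 146. The number of tested miRNAs ranged from 359 to 1469 over these settings.

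The log2 difference of the summed family was -1.36. It became -0.80 with library sizes alone, -0.90 with library sizes that left out the 10 most abundant miRNAs and -1.92 without miR-548o-3p, and it lay between -1.69 and -1.33 when any 1 library was left out. Members with a count in any input library numbered 26 to 27 when an input library was left out, and 8 to 10 in m7G-RIP. No result changed its direction.

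The replicate numbers were not taken as a pairing, since same-numbered libraries deviated together by correlations of only -0.05, -0.09 and 0.08. With the replicate number as a block, 3 members were depleted (miR-548o-3p, miR-548k and miR-548e-3p, the last with an edgeR adjusted p = 0.0463 and miR-548f-3p at 0.0534), 175 miRNAs were depleted and 122 enriched in all, and the family difference was -1.36. Depth limits the 50 members at 0, for which absence cannot be told from a level under 3 counts per group.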
